A study of Mus musculus with 15 samples.

Results

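The genes described here belong to families of proteases that work outside the cell or in lysosomes, and of protease inhibitors, in a mouse model of acute graft-versus-host disease (aGvHD). They were chosen by symbol from the 4 gene tables of the study. The symbols cover matrix metalloproteinases (Mmp), Adam and Adamts genes, cathepsins (Cts) other than Ctsg, serpins, cystatins (Cst), stefins (Stfa) and tissue inhibitors of metalloproteinases (Timp). The rule found 42 of the 4567 genes in these tables, namely 15 Adam and Adamts genes, 12 serpins, 6 matrix metalloproteinases, 6 cystatins and stefins and 3 cathepsins. No Timp gene was among them. Ctsb, Ctsc, Ctsd, Ctsl, Ctss, Cstb and Serping1 have no row in the tables either and were not analysed here, so the lysosomal proteases are represented by Ctsh, Ctsk and Ctsw alone. The tables hold only genes that passed the authors' own thresholds in at least 1 of their comparisons of these libraries. The percentage called among all listed genes, which is high for the same reason, is given for each comparison as the background for the counts.

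RNA of sorted T cells was sequenced in 15 libraries, 3 in each of 5 groups. Donor T cells from C57Bl6 spleens were given with bone marrow to lethally irradiated BALB/c recipients, and spleens were taken on day 7. Cells were sorted by CD3, CD4 and CD8 and by a FAM-Flica probe, a fluorescent inhibitor that binds active caspase-1, the protease at the core of inflammasomes. The day 7 groups are Flica-negative CD4+, Flica-negative CD8+ and Flica-positive CD8+ cells, and the controls are Flica-negative CD4+ and CD8+ cells of untreated C57Bl6 mice on day 0. The controls were neither transplanted nor irradiated, so the alloreaction, the transfer and the irradiated host cannot be told apart in a comparison with day 0. The labels call the libraries biological replicates, and the methods name several recipients for the day 7 sorts without tying animals to libraries, so p-values measure the spread between these libraries. In bulk RNA, a change in the share of cells that make a transcript and a change in transcript per cell cannot be told apart.

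Proteases of these families cut matrix, cell surface proteins or the contents of lysosomes, and many are held in check by inhibitors. Serpins act as bait for serine proteases and trap them in a covalent complex, and several of those in clade B stay inside the cell, where they guard killer lymphocytes and granulocytes against their own granule proteases. Cystatins and stefins plug the active site of cysteine cathepsins. Cytotoxic T cells are known for granzymes and cathepsin W, while neutrophils are known for granule metalloproteinases and stefins.

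Values are normalized counts, that is, the deposited counts divided by the authors' size factors, which were recovered from their deposited means. The listed genes took 7310375 to 11046043 counts in each Flica-positive library and 2143579 to 3184674 in each of the other libraries, at size factors between 0.836 and 1.25. Cd8a, the chain that defines CD8+ T cells, was at 4.41 to 116.5 in the CD4 libraries and at 9348 to 21640 in the CD8 libraries, as the labels have it. Cd4 and Cd3e have no row and were not checked. The 3 Flica-positive libraries differed more from each other than the replicates of any other group, with a chi-square per degree of freedom between pairs of 99.4 to 462 against 13.5 to 38.9 elsewhere, and replicate 3 was the farthest from the others. Without that library 16 members were called between the Flica fractions, the same number as with it. Among 14 neutrophil markers, 11 were listed beside the members, and their summed level was 190631 to 368591 in the Flica-positive libraries, 10992 to 17166 in Flica-negative CD8+, 2431 to 7590 in Flica-negative CD4+ and 53.2 to 150 in the 6 control libraries. No neutrophil marker was at 0 in any day 7 library.

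Many of the members lie in gene clusters, and the promoters of 2 such clusters are shown. In both, members were called higher, and none lower, against day 0 and between the Flica fractions. The Serpinb cluster named below met this too, but its promoters are not shown. Positions are on GRCm38, the build named in the submitters' processing notes. Serpina3f, Serpina3g, Serpina3h and Serpina3i stand side by side on chr12:104214544-104269372. Serpinb1a, Serpinb6b, Serpinb9, Serpinb9b and Serpinb1b share chr13:32842092-33094380. The 4 stefin A genes lie on chr16:36156811-36455392. RefSeq promoter windows on GRCm38.p6, from 250 bases before to 50 after each gene's start, were found for 34 of the 42 members. The first set shows the stretch of the 3 Serpina3 promoters that holds TTCNNNGAA, the gamma-activated sequence (GAS) bound by STAT factors, in capitals, with 60 bases before it. The match begins 121, 33 and 102 bases before the start in Serpina3f, Serpina3g and Serpina3i.
Serpina3f, chr12:104214363-104214461, plus strand: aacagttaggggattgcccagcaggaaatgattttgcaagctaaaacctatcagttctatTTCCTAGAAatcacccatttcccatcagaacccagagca
Serpina3g, chr12:104236054-104236146, plus strand: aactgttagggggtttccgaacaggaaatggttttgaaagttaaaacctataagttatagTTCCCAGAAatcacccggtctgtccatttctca
Serpina3i, chr12:104262960-104263058, plus strand: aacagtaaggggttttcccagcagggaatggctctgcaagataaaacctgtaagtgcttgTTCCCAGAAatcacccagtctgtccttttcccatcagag
The 3 stretches were 72.0% to 77.8% identical to each other. TTCNNNGAA, which reads the same on both strands, was searched in the 250 bases before the start. It was found in 7.02% of all 32851 promoter windows and in 3 of the 34 members with a window, which are these 3. The AP-1 motif TGANTCA was in 6.75% of windows and 2 of these 34 members, and the PU.1 motif GAGGAAG in 10.6% and 7. The C/EBP motif TTGCNNAA was in 9.56% and 6, and the T-box motif AGGTGT in 11.8% and 4. Each was searched in the same 250 bases on both strands, and a member counts once however many windows it has. These are matches of letters and not sites of binding.

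The second set shows the 100 bases before the start of the 4 stefin A genes, with the longest run that all 4 share in capitals.
Stfa1, chr16:36277048-36277147, plus strand: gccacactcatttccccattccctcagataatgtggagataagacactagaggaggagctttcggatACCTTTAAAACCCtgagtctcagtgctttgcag
Stfa2, chr16:36408364-36408463, minus strand: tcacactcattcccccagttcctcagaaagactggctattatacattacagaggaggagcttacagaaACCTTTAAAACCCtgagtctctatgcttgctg
Stfa2l1, chr16:36156711-36156810, plus strand: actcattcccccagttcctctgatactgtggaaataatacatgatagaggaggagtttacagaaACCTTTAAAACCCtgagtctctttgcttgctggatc
Stfa3, chr16:36455393-36455492, minus strand: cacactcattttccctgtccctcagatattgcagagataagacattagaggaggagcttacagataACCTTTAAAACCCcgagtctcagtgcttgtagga
The shared run begins 33, 32, 36 and 34 bases before the start in this order. Over the 250 bases before the start, the 4 genes were 80.2% to 89.4% identical in pairs.

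On day 7 most members differed from day 0, and more of them were higher than lower. In Flica-negative CD8+ cells 26 of 42 members were higher than in CD8 controls and 6 were lower, by edgeR's quasi-likelihood test at an adjusted p below 0.05, while 37.6% and 29.1% of all listed genes were. The median log2 difference was 3.36 over the members and 0.69 over all listed genes. In Flica-negative CD4+ cells 21 members were higher than in CD4 controls and 6 lower, against 31.6% and 26.8% of listed genes, with medians of 1.87 and 0.14. The higher CD4+ calls of Adam22, Adamts14, Mmp28, Serpinb1a, Serpine2, Stfa1 and Stfa2 were each lost without a single library. So were the lower CD4+ calls of Adamts17, Adamtsl4 and Mmp15. In Flica-negative CD8+ cells against CD8 controls this held for Adam11, Adamtsl4, Serpina3i and Stfa2l1. These comparisons share no library, but they are not fully independent. Same-numbered CD4 and CD8 control libraries deviated together over genes with a mean of 100 or more. Both comparisons called 20 members higher, which is 95.2% of the CD4 calls and 76.9% of the CD8 calls, and over all listed genes these shares were 86.6% and 72.1%. Both called 5 members lower and none in opposite directions, as against 19 listed genes in opposite directions. In Flica-positive CD8+ cells 29 members were higher than in CD8 controls and 4 lower, against 46.8% and 23.9% of listed genes, with medians of 4.54 and 2.04. Here the higher calls of Adam11, Adam12, Mmp14, Serpina3h and Serpinb10 and the lower call of Adam6b were each lost without a single library. With TMM scaling over the listed genes the last counts were 19 higher and 8 lower, and the median of all listed genes fell by 1.65 on the log2 scale, so where TMM turned the direction of a difference printed for the Flica-positive cells, both values are given. Between the Flica fractions 16 of 41 members were higher in Flica-positive cells and 0 lower, against 21.1% and 2.72% of listed genes, and TMM made this 14 higher and 5 lower. The median difference between the fractions was 1.499 over the members and 0.41 over all listed genes.

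**Figure D1:**
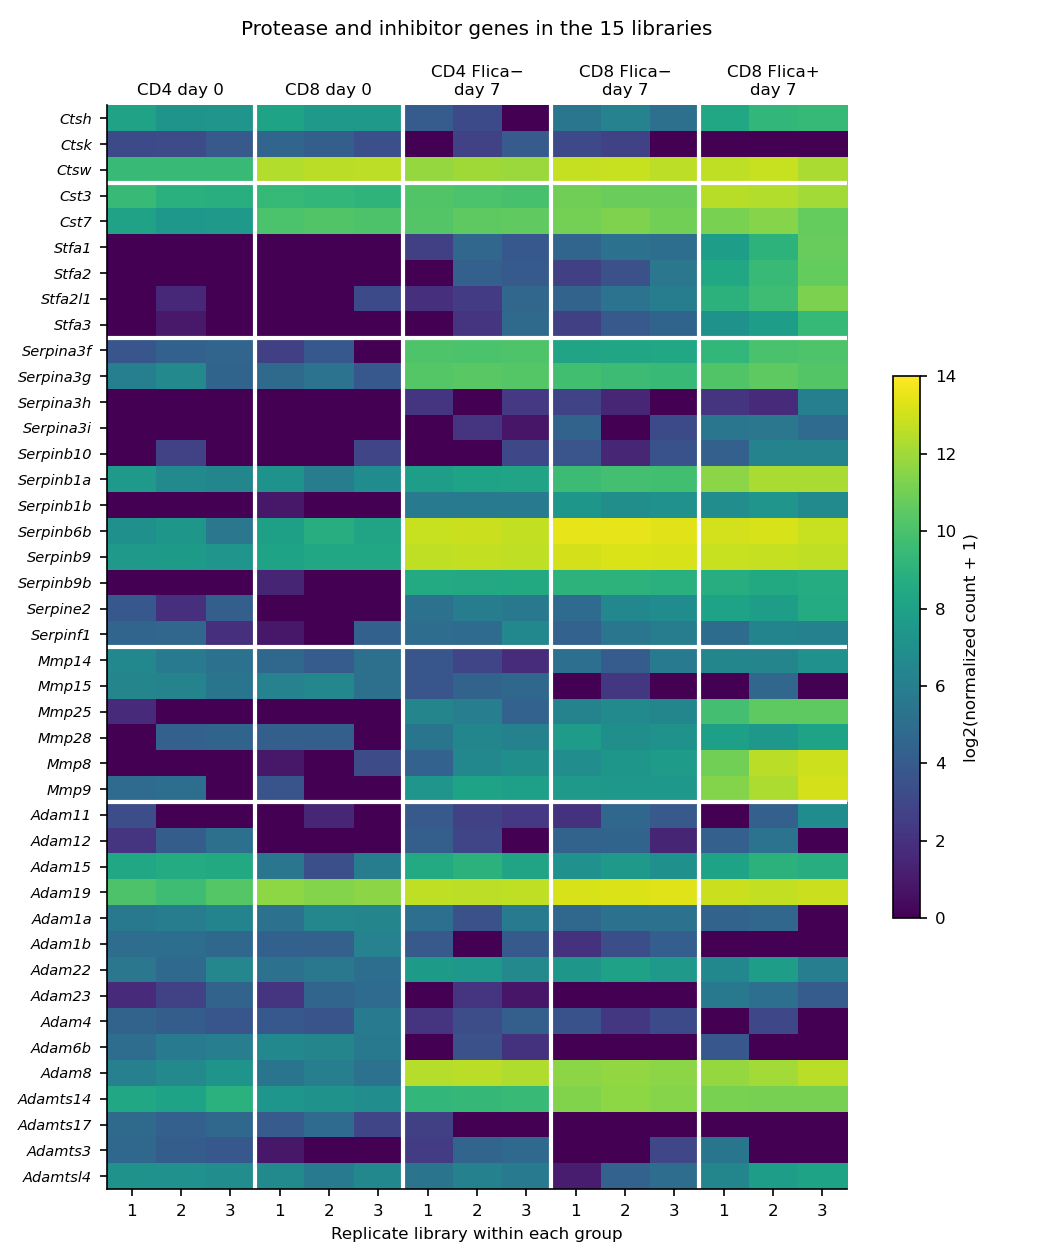
Heat map of the 42 protease and inhibitor genes (rows, by family) in the 15 libraries (columns, by group), coloured by log2(normalized count + 1). The Stfa genes, Mmp8, Mmp9 and Mmp25 are near 0 on day 0 and brightest in the 3 Flica-positive libraries, while Serpinb9 and Serpinb6b are bright in all 9 day 7 libraries.

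The granule metalloproteinases Mmp8, Mmp9 and Mmp25 separated the Flica-positive libraries from all others. Mmp8 (ENSMUSG00000005800, chr9:7558456-7568485), the neutrophil collagenase, was at 2104, 5937 and 7732 in the Flica-positive libraries, at 116, 168 and 206 in Flica-negative CD8+ and at 20.3, 91.5 and 125 in Flica-negative CD4+. In the CD8 controls it was at 0.881, 0 and 8.66, and it was at 0 in the CD4 controls. Mmp8 was thus at its lowest on day 0, and no Flica-positive library overlapped a Flica-negative one. The difference between the fractions was 5.004 ± 0.45 (log2, SE; adjusted p = 4.8e-06). Flica-negative CD8+ cells differed from CD8 controls by 5.67 ± 0.90 (adjusted p = 0.00027), and in Flica-negative CD4+ cells Mmp8 was at least 26.5-fold higher than a floor of 3 counts per control library.

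Mmp9 (gelatinase B, ENSMUSG00000017737, chr2:164940780-164955850) was at 2677, 4968 and 8859 in the Flica-positive libraries and at 189, 177 and 177 in Flica-negative CD8+. It was at 158, 281 and 239 in Flica-negative CD4+ cells. Of the 6 control libraries 3 held it at 0 and the highest at 31.9. The fractions differed by 4.93 ± 0.40 (adjusted p = 2.1e-06) with no overlap, and Flica-negative CD4+ cells differed from their controls by 3.49 ± 0.79 (adjusted p = 0.00239). Mmp25, a membrane-anchored metalloproteinase of neutrophils also called leukolysin, was at 898, 1495 and 1461 in the Flica-positive libraries, at 75.6, 99.8 and 83.7 in Flica-negative CD8+ and at 0 in the CD8 controls. It was at least 469-fold higher than the floor in Flica-positive and at least 31.6-fold higher in Flica-negative CD8+ cells, and the fractions differed by 3.89 ± 0.30 (adjusted p = 1.4e-06).

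The remaining metalloproteinases were low. Mmp28 (epilysin) was at 205, 124 and 147 in Flica-negative CD8+ cells and 17.6, 17.9 and 0 in CD8 controls, a difference of 3.72 ± 0.84 (adjusted p = 0.00292). Mmp15, a membrane-type enzyme, was at 72.2, 89.5 and 34.6 in CD8 controls and at 0, 3.73 and 0 in Flica-negative CD8+ cells, and fell by 5.58 on the log2 scale (SE 1.09, adjusted p = 0.00101). Mmp14, the membrane-type enzyme that activates pro-Mmp2, was at 91.6, 55.1 and 38.2 in CD4 controls and at 12.3, 6.7 and 2.4 in Flica-negative CD4+ cells, and fell by 3.09 (SE 0.76, adjusted p = 0.00397). Of the 6 metalloproteinases 4 were thus higher and 1 lower in Flica-negative CD8+ cells (37.6% and 29.1% of listed genes), and 4 higher and 2 lower in Flica-negative CD4+ cells (31.6% and 26.8%). The Mmp28 and Mmp15 calls in CD4+ cells each had an adjusted p above 0.05 when a single library was left out, at most 0.143 without Flica-negative CD4+ replicate 2 for Mmp28 and 0.0853 without CD4 control replicate 1 for Mmp15.

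As for Mmp8, the group means of the stefin A genes were highest in Flica-positive, then Flica-negative CD8+, then Flica-negative CD4+ cells. Their means in Flica-negative CD4+ cells were 10.1 to 14.1. None of these genes was called between Flica-negative CD4+ and CD8+ cells, and neither was Mmp8. Against CD4 controls, Stfa2l1 and Stfa3 were not called. The CD4+ calls of Stfa1 and Stfa2 were lost without Flica-negative CD4+ replicate 2 (adjusted p = 0.0521 and 0.113). Stfa2l1 was at 505, 800.5 and 2401 in the Flica-positive libraries, at 21.3, 39.2 and 57.8 in Flica-negative CD8+ and at 0, 0 and 7.69 in CD8 controls. Stfa2 was at 339, 683 and 1649 in the Flica-positive libraries, at 5.33, 10.3 and 46.6 in Flica-negative CD8+ and at 0 in all 6 controls. Stfa1 was at 217, 533 and 1695 in the Flica-positive and at 22.4, 38.3 and 32.8 in the Flica-negative CD8+ libraries, again with 0 in all 6 controls. Each gene was highest in Flica-positive replicate 3, and none overlapped between the fractions. The differences between the fractions were 5.39 ± 0.76 for Stfa2 (adjusted p = 0.00018), 4.95 ± 0.59 for Stfa2l1 (adjusted p = 4.2e-05), 4.70 ± 0.66 for Stfa1 (adjusted p = 0.00016) and 4.64 ± 0.70 for Stfa3 (adjusted p = 0.00027). Against the floor in CD8 controls, Stfa2 was at least 325-fold, Stfa1 at least 298-fold and Stfa3 at least 127-fold higher in Flica-positive cells. Without Flica-positive replicate 3 these bounds were 187, 137 and 66.7. Stfa3 was at 147, 219 and 676 in the Flica-positive and at 5.33, 14 and 21.6 in the Flica-negative CD8+ libraries. With TMM the differences between the fractions were 3.30 for Mmp25, 4.41 for Mmp8 and 4.29 for Mmp9, and 4.06 to 4.83 for the stefins. Of Stfa1, 5.07% of its 100-base windows occur also in BC100530, so a small part of its reads could belong there.

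These metalloproteinases and stefins moved with the neutrophil markers. Mmp8, Mmp9 and Stfa2l1 belong themselves to the list of 14 neutrophil markers and were left out of the 11 that were summed. Their movement with these markers is therefore not independent of how the list was chosen. Per 1000 normalized counts of the 11 markers, Mmp8 was at 11 to 21 in Flica-positive, 9.91 to 12 in Flica-negative CD8+ and 8.34 to 20.7 in Flica-negative CD4+ libraries, so that the 3 ranges overlapped. Stfa1 was at 1.14 to 4.6, 1.91 to 2.26 and 1.79 to 5.29 in the same order, and Stfa2l1 at 2.37 to 6.51, 1.94 to 3.37 and 1.01 to 3.06. Mmp25 was at 3.96 to 4.71, 4.88 to 6.88 and 2.64 to 33.7, so that its ranges in the CD8 fractions did not overlap. Mmp9 overlapped between the CD8 fractions, at 14 to 24 and 10.3 to 17.2, and was higher in CD4+ at 31.4 to 64.9. The other marker lists moved too. All 8 listed macrophage markers, 5 of 7 monocyte, 7 of 7 granulocyte progenitor, 5 of 5 mast cell and basophil and 6 of 6 erythroid markers were called higher in the Flica-positive fraction, with 0 called lower in these lists, against 21.1% and 2.72% of all listed genes. Of 10 B cell markers 3 were called higher there, of 5 platelet markers 2, and of 4 dendritic cell markers 1 higher and 1 lower. Summed macrophage markers were at 17609 to 37162 in Flica-positive and 876 to 2037 in Flica-negative CD8+ libraries, and erythroid markers at 1699 to 111918 and 324 to 3755. No macrophage, monocyte, granulocyte progenitor, mast cell and basophil or erythroid marker was at 0 in a Flica-positive library, while 4 B cell markers and 1 platelet marker were at 0 in at least 1 of them. The part of such cells in the results was not tested.

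**Figure D2:**
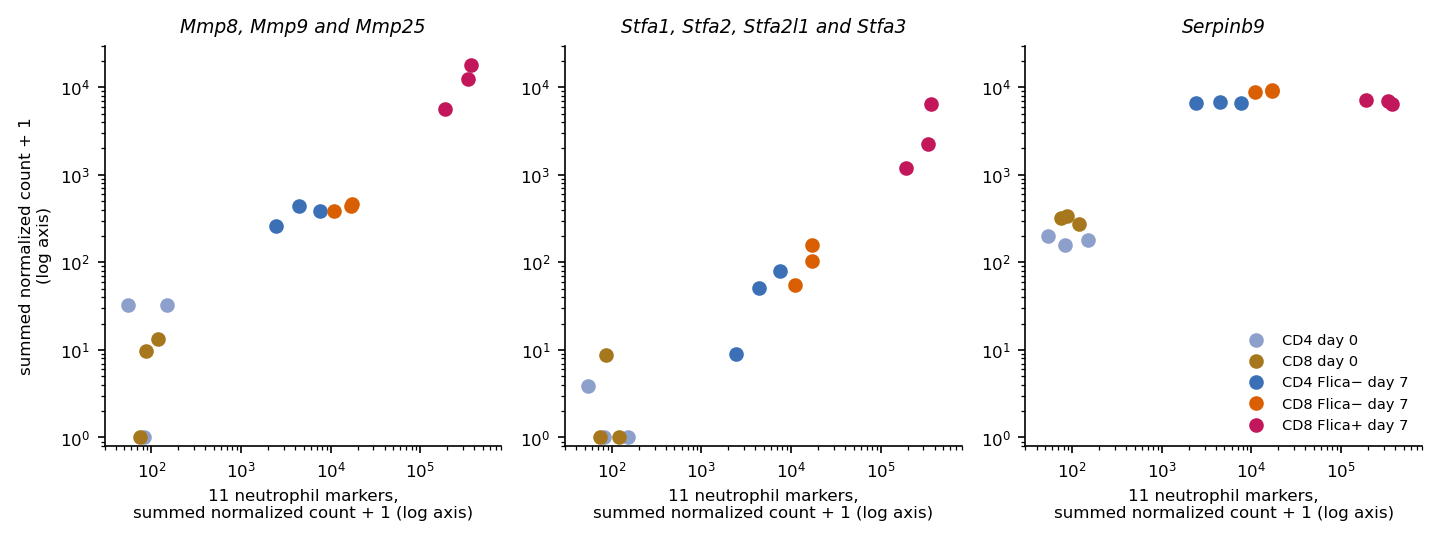
Summed normalized counts (+ 1, log axis) of the genes named above each panel in every library, against the summed normalized count of 11 neutrophil markers (+ 1, log axis), coloured by group. The 3 Flica-positive libraries lie at 190631 to 368591 on the x axis, where the stefin A sum is 1208 to 6421 and the sum of Mmp8, Mmp9 and Mmp25 is 5679 to 18053.

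Of the cathepsins, Ctsw and Ctsh behaved differently. Ctsw (cathepsin W, a cysteine protease of killer lymphocytes, ENSMUSG00000024910, chr19:5465043-5468507) was at 718, 724 and 725 in CD4 controls and at 3535, 4080.4 and 3768 in Flica-negative CD4+ cells. In the CD8 lineage it was at 5429, 5939 and 6244 on day 0, at 6863, 7129 and 6185 in Flica-negative and at 6547, 7119.7 and 4771 in Flica-positive cells. The CD4+ cells rose by 2.39 ± 0.16 (adjusted p = 1.2e-07), while the CD8 groups overlapped. Flica-positive and control CD8+ cells differed by 0.07 ± 0.21 (adjusted p = 0.77), which TMM turned to -1.55 (adjusted p = 0.003). Per kilobase of exon Ctsw had the highest mean level of all members in CD8 controls, at 3111.

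Ctsh, a lysosomal aminopeptidase, was at 273, 182 and 186 in CD8 controls, at 43.7, 71.8 and 34.5 in Flica-negative CD8+ and at 329, 607 and 657 in Flica-positive cells. The CD4+ libraries went from 269, 153 and 157 on day 0 to 15.9, 7.81 and 0 on day 7. It fell by 2.09 (SE 0.42, adjusted p = 0.00146) in Flica-negative CD8+ and by 4.61 (SE 0.79, adjusted p = 0.00028) in CD4+ cells. The Flica-positive cells were above the Flica-negative ones by 3.41 ± 0.42 (adjusted p = 5.3e-05) without overlap, and above CD8 controls by 1.31 ± 0.37 (adjusted p = 0.0136), which was -0.40 with TMM (adjusted p = 0.348). Beside it, 10 of 10 listed B cell markers were called lower in each Flica-negative comparison with day 0, with sums of 7429 to 10658 in the controls against 362 to 649 in the Flica-negative libraries. Per 1000 neutrophil marker counts Ctsh was at 1.73 to 1.8 in Flica-positive and 2.01 to 4.24 in Flica-negative CD8+ libraries. The part of B cells or myeloid cells was not tested. Ctsk, the collagen-cutting cathepsin of osteoclasts, was at most 22.9 in any library and at 0 in all Flica-positive ones.

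Among the Adam genes, Adam8 rose in every day 7 group. Adam8, a membrane metalloprotease of activated leukocytes (ENSMUSG00000025473, chr7:139978932-139992562), was at 43.2, 61.8 and 36.5 in CD8 controls, at 3064, 3444 and 3039 in Flica-negative CD8+ and at 3569, 4233 and 5965 in Flica-positive cells. The CD4+ libraries went from 68.1, 96.7 and 149 to 5619, 6000.0 and 5186. All day 7 libraries lay above all controls, with differences of 6.07 ± 0.26 in Flica-negative CD8+ (adjusted p = 4.4e-08) and 5.73 ± 0.28 in CD4+ cells (adjusted p = 1e-08). The fractions differed by 0.53 ± 0.23 (adjusted p = 0.11), or by -0.08 with TMM (adjusted p = 0.832).

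Adam19 (meltrin beta) was already at 3119.6, 2755 and 3052 in CD8 controls and reached 9225, 9910.2 and 10273 in Flica-negative CD8+ cells, a difference of 1.72 ± 0.13 (adjusted p = 1.3e-06). Flica-positive cells were at 7406, 6679 and 7480.1, above the controls by 1.27 ± 0.18 (adjusted p = 0.00031) on the authors' scale, but at -0.38 with TMM (adjusted p = 0.184). Adamts14, which removes the N-propeptide of procollagen, was at 160.3, 141 and 116 in CD8 controls and at 2587, 3204 and 2833 in Flica-negative CD8+ cells. Flica-positive libraries held it at 2337, 2248 and 2223, and Flica-negative CD4+ libraries at 627, 631 and 704. Adamts14 rose by 4.37 ± 0.22 in Flica-negative CD8+ (adjusted p = 1.2e-07) and by 0.83 ± 0.24 in CD4+ cells (adjusted p = 0.0112), and the CD4 call was lost without CD4 control replicate 2 (adjusted p = 0.0541).

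Of the 15 Adam and Adamts genes 7 were higher and 4 lower in Flica-negative CD8+ cells, and 4 higher and 3 lower in CD4+ cells, against 37.6% and 29.1%, and 31.6% and 26.8%, of listed genes. Adam15 rose by 1.95 ± 0.60 in CD8+ cells (adjusted p = 0.0147) and differed by 1.42 ± 0.34 between the fractions (adjusted p = 0.00922), but had an adjusted p of 0.0553 without Flica-positive replicate 2 and 0.0879 with TMM. A gene on the opposite strand shares 10.9% of its 100-base windows, and whether counting used strand is not stated. Adam23, a brain member without protease activity, was at 50.4, 34.1 and 15.5 in the Flica-positive libraries and at 0 in Flica-negative CD8+, and so was at least 11.7-fold higher. Adamtsl4, which has no protease domain, fell in both Flica-negative comparisons with day 0, by 2.19 (SE 0.81, adjusted p = 0.0345) in CD8+ and by 1.24 (SE 0.40, adjusted p = 0.0183) in CD4+ cells. Both calls were lost without a single control library, with adjusted p = 0.0884 without CD8 control replicate 1 and 0.0583 without CD4 control replicate 1. Adam6b, a germ line gene that lies within the immunoglobulin heavy chain locus, was at 93.4, 80.6 and 50.01 in CD8 controls and at 0 in Flica-negative CD8+ cells, at least 26.1-fold lower. Its fall stood beside that of the B cell markers, and the part of B cells in it was not tested. Adam6b shares 13.2% of its 100-base windows with Adam6a, so part of its counts is uncertain.

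The low members of this family gave weaker results. Adam22 rose by 2.396 ± 0.40 in Flica-negative CD8+ cells (adjusted p = 0.00041), from at most 47.5 to at least 170.5. Adamts17 fell from 15, 28.7 and 6.73 in CD8 controls to 0 in all CD8 day 7 libraries. In the Flica-negative ones this was at least 5.87-fold, or 3.79-fold without CD8 control replicate 2. Adam11 and Adam12 were called higher in Flica-negative CD8+ cells at no more than 24.3 and 21.5 in any of these libraries. Adam1a, Adam4, Adamts3 and Serpinf1 were called in none of the comparisons with day 0 or between the fractions. Adam1a shares 76.5% and Adam1b 30.3% of its 100-base windows with other genes, so their counts are uncertain.

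The intracellular serpins of chromosome 13 rose together in every day 7 group. Serpinb9, the inhibitor of granzyme B (ENSMUSG00000045827, chr13:33003250-33017957), was at 273, 321 and 338 in CD8 controls, at 8749, 9283 and 9140.0 in Flica-negative CD8+ and at 7199.6, 6988 and 6437 in Flica-positive cells. In CD4+ cells it went from 179.8, 199 and 156 to 6579.5, 6761 and 6534. All 9 day 7 libraries were far above all 6 controls, by 4.87 ± 0.16 in Flica-negative CD8+ (adjusted p = 7.8e-09), 4.47 ± 0.21 in Flica-positive (adjusted p = 3e-06) and 5.22 ± 0.19 in CD4+ cells (adjusted p = 1.4e-09). All Flica-positive libraries lay below all Flica-negative CD8+ libraries, but the difference of -0.40 ± 0.18 was not called (adjusted p = 0.127), whereas TMM gave -0.98 (adjusted p = 0.0058).

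Serpinb6b, another clade B serpin (ENSMUSG00000042842, chr13:32965209-32979067), was at 249, 418 and 286 in CD8 controls and at 11281, 11629 and 10731 in Flica-negative CD8+ cells. It was at 8587, 9192 and 7249 in Flica-positive and at 7154, 7592 and 6843 in Flica-negative CD4+ cells. Per kilobase of exon it had the highest mean level of all members in Flica-negative CD8+ cells, at 4957, and in CD4+ cells, at 3181. It rose by 5.14 ± 0.22 in Flica-negative CD8+ (adjusted p = 4e-08) and 5.97 ± 0.39 in CD4+ cells (adjusted p = 7.8e-08), and the fractions differed by -0.43 ± 0.18 (adjusted p = 0.114), or by -1.01 with TMM (adjusted p = 0.00666).

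Serpinb9b, a close relative of Serpinb9, and Serpinb1b were all but silent on day 0. Serpinb9b was at 1.76, 0 and 0 in CD8 controls and at 527, 535 and 470.3 in Flica-negative CD8+ cells, a ratio of 838 with a 95% counting interval of 232 to 6923. In CD4+ cells it went from 0 to 375, 344 and 362, at least 121-fold. Serpinb1b went from 0 in CD4 controls to 52.9, 55.8 and 54.5, at least 18.3-fold. Neither was called between the fractions, with -0.37 ± 0.25 for Serpinb9b (adjusted p = 0.3; with TMM -0.96, adjusted p = 0.0162) and -0.18 ± 0.42 for Serpinb1b (adjusted p = 0.784).

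**Figure D3:**
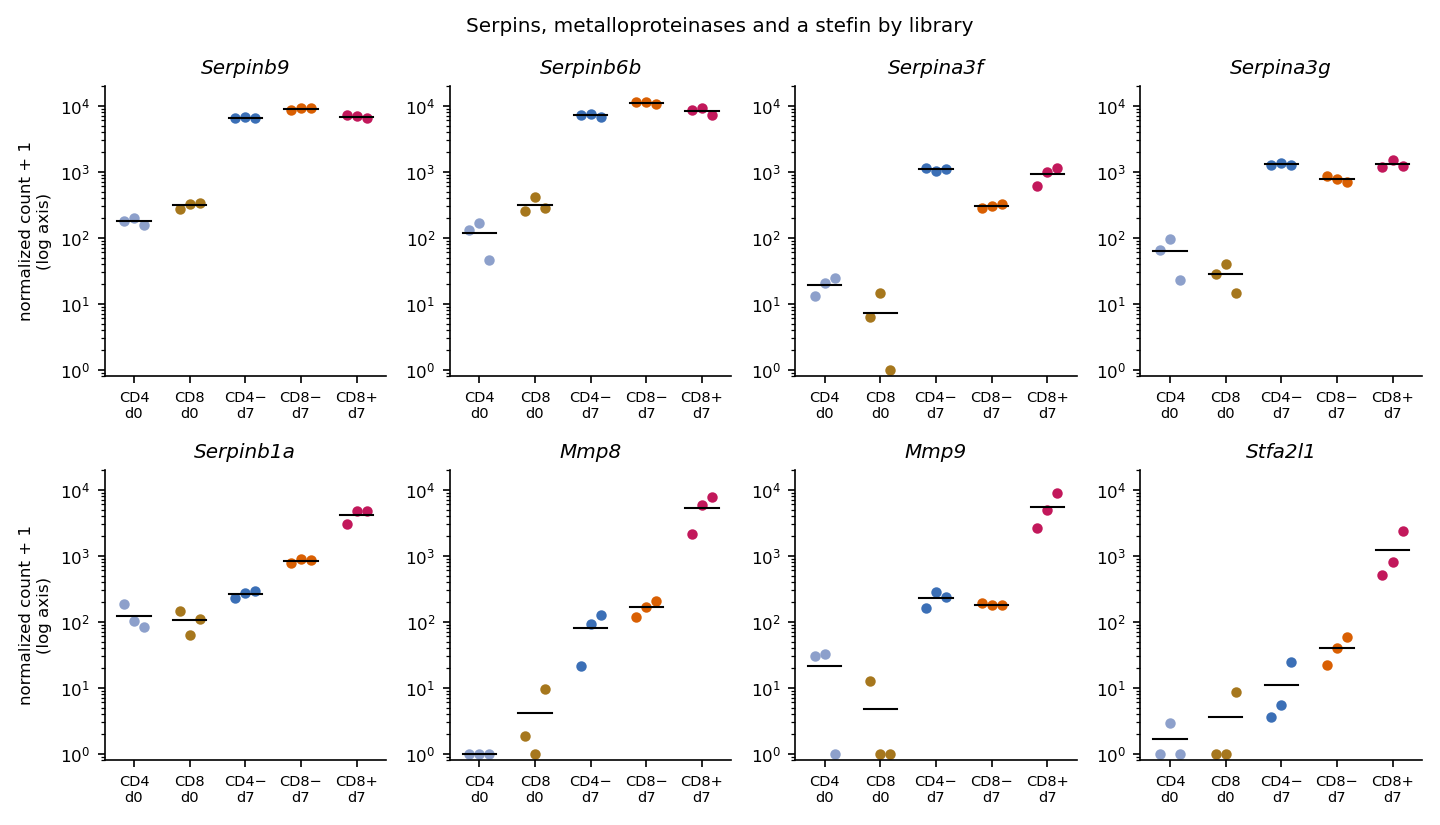
Normalized counts (+ 1, log axis) of 8 members in the 5 groups, with 1 point per library and a bar at the group mean. Serpinb9 and Serpinb6b are high in all 9 day 7 libraries, while Mmp8, Mmp9 and Stfa2l1 are highest in the 3 Flica-positive libraries.

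Serpinb1a, the inhibitor of neutrophil elastase, proteinase 3 and cathepsin G, differed from its neighbours. It was at 145, 60.9 and 111 in CD8 controls, at 772, 887 and 866 in Flica-negative CD8+ and at 2984, 4808 and 4771 in Flica-positive cells. In CD4+ cells it went from 183, 103 and 83.6 to 231, 273 and 291. The fractions did not overlap and differed by 2.31 ± 0.24 (adjusted p = 1.3e-05), and Flica-negative CD8+ cells were above day 0 by 2.99 ± 0.34 (adjusted p = 2.4e-05). With TMM the fractions differed by 1.72 (adjusted p = 8.7e-05). The CD4 difference of 1.11 ± 0.34 (adjusted p = 0.015) was lost without CD4 control replicate 2 (adjusted p = 0.0552). Unlike Mmp8, Serpinb1a per 1000 neutrophil marker counts was lower in Flica-positive libraries, at 12.9 to 15.7, than in Flica-negative CD8+ libraries, at 50.5 to 70.3.

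Serpina3f and Serpina3g, whose promoters are shown above, rose in every day 7 group. Serpina3g, a cytosolic inhibitor of cathepsins (ENSMUSG00000041481, chr12:104236245-104241939), was at 27.3, 39.4 and 13.5 in CD8 controls, at 876, 788 and 693 in Flica-negative CD8+ and at 1262, 1373 and 1257 in Flica-negative CD4+ cells. It rose by 4.87 ± 0.40 in CD8+ (adjusted p = 2.5e-06) and 4.42 ± 0.40 in CD4+ cells (adjusted p = 1.3e-06). In the Flica-positive libraries it was at 1192, 1493 and 1203, above the Flica-negative ones by 0.72 ± 0.22 (adjusted p = 0.0303), a call lost without Flica-positive replicate 2 (adjusted p = 0.133) and with TMM (adjusted p = 0.753).

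Its neighbour Serpina3f was at 5.29, 13.4 and 0 in CD8 controls, at 284, 299 and 319 in Flica-negative CD8+ and at 609.6, 1006 and 1146 in Flica-positive cells. CD4+ cells went from 12.3, 19.3 and 23.1 to 1147, 1030.1 and 1116. The fractions did not overlap and differed by 1.61 ± 0.28 (adjusted p = 0.00086; with TMM 1.01, adjusted p = 0.0107), and CD4+ cells rose by 5.89 ± 0.29 (adjusted p = 1e-08). Serpina3i was at 0 in all 6 controls and at 43.4, 45.9 and 28.7 in the Flica-positive libraries, at least 14.4-fold above the floor. In Flica-negative CD8+ cells it was at 21.3, 0 and 7.77, a call (adjusted p = 0.0345) lost without Flica-negative CD8+ replicate 1 (adjusted p = 0.115), and in Flica-negative CD4+ cells it was at no more than 3.35 and not called. The 4 Serpina3 members share 2.25% to 3.6% of their 100-base windows with each other or with further Serpina3 genes, so a small part of the reads could be split between them, and Serpina3h is annotated as a transcribed pseudogene.

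Among the secreted serpins, Serpine2 (protease nexin-1, an inhibitor of thrombin and urokinase) was at 0 in CD8 controls, at 28.8, 92.4 and 109.6 in Flica-negative CD8+ and at 273, 226 and 391 in Flica-positive cells. It was at least 28.1-fold higher than the floor in Flica-negative and at least 108-fold higher in Flica-positive cells, and the fractions differed by 1.94 ± 0.50 (adjusted p = 0.0128; with TMM 1.42, adjusted p = 0.033). Serpinb10, annotated as a polymorphic pseudogene, was at 18.8, 76.5 and 75.3 in the Flica-positive libraries and was not called between the fractions (2.82 ± 1.02, adjusted p = 0.0629). Of the 12 serpins 9 were thus higher in Flica-negative CD8+ cells than on day 0, 8 in Flica-negative CD4+, 11 in Flica-positive CD8+, and 4 between the fractions, with 0 lower in these comparisons, against 37.6%, 31.6%, 46.8% and 21.1% of listed genes higher. With TMM 9 were higher and 0 lower in Flica-positive cells than on day 0, and between the fractions 3 were higher and 3 (Serpinb6b, Serpinb9 and Serpinb9b) lower. On the authors' scale, the Flica-positive calls of Serpina3h and Serpinb10 against day 0 were each lost without a single library. So were the calls of Serpina3i in Flica-negative CD8+, of Serpinb1a and Serpine2 in CD4+ cells and of Serpina3g between the fractions. Serpina3h was at 3.52, 2.35 and 65.8 in the Flica-positive libraries.

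Of the cystatins, Cst3 and Cst7 were the abundant members. Cst3 (cystatin C, a secreted inhibitor of cysteine cathepsins) was at 672, 625 and 547 in CD8 controls, at 1963, 1764 and 1799 in Flica-negative CD8+ and at 5855, 5268 and 4300.3 in Flica-positive cells. CD4+ cells went from 684, 471 and 441 to 1163, 1064 and 974. No groups overlapped within a lineage, and the differences were 1.48 ± 0.20 between the fractions (adjusted p = 0.00015; with TMM 0.90, adjusted p = 0.0168), 1.58 ± 0.19 in Flica-negative CD8+ (adjusted p = 4e-05) and 1.00 ± 0.22 in CD4+ cells (adjusted p = 0.00179). Per kilobase it had the highest mean level of all members in Flica-positive cells, at 4061, and in CD4 controls, at 420. Its level per 1000 neutrophil marker counts was 11.7 to 30.7 in Flica-positive and 104 to 179 in Flica-negative CD8+ libraries.

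Cst7 (cystatin F, an inhibitor held in the granules and lysosomes of killer cells) was at 1039, 1182 and 1100.2 in CD8 controls, at 2154, 2523 and 2068 in Flica-negative CD8+ and at 2306, 2769 and 1651 in Flica-positive cells. In CD4+ cells it rose from 262, 175 and 187 to 1233, 1474 and 1526, a difference of 2.76 ± 0.23 (adjusted p = 5.2e-07). The 2 CD8 fractions overlapped (0.00 ± 0.23, adjusted p = 0.99). The Flica-negative CD8+ cells were above day 0 by 1.02 ± 0.18 (adjusted p = 0.00052), which TMM made 0.63 (adjusted p = 0.0725). Flica-positive cells were above day 0 by 1.02 ± 0.24 (adjusted p = 0.00609), which TMM turned to -0.60 (adjusted p = 0.133).

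The comparison between the Flica fractions can be read from these values as 16 members higher in Flica-positive cells. They are Mmp8, Mmp9 and Mmp25, the 4 stefin A genes and Cst3, Ctsh, Serpinb1a, Serpine2, Serpina3f and Serpina3g, and Adamtsl4, Adam15 and Adam23. The replicate number, used as a block, called the same 16. The members at the highest levels in the Flica-negative fraction, Serpinb6b, Adam19, Serpinb9 and Ctsw, were not among them, and with TMM Serpinb6b, Adam19, Serpinb9, Serpinb9b and Adamts14 were called lower in Flica-positive cells.

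**Figure D4:**
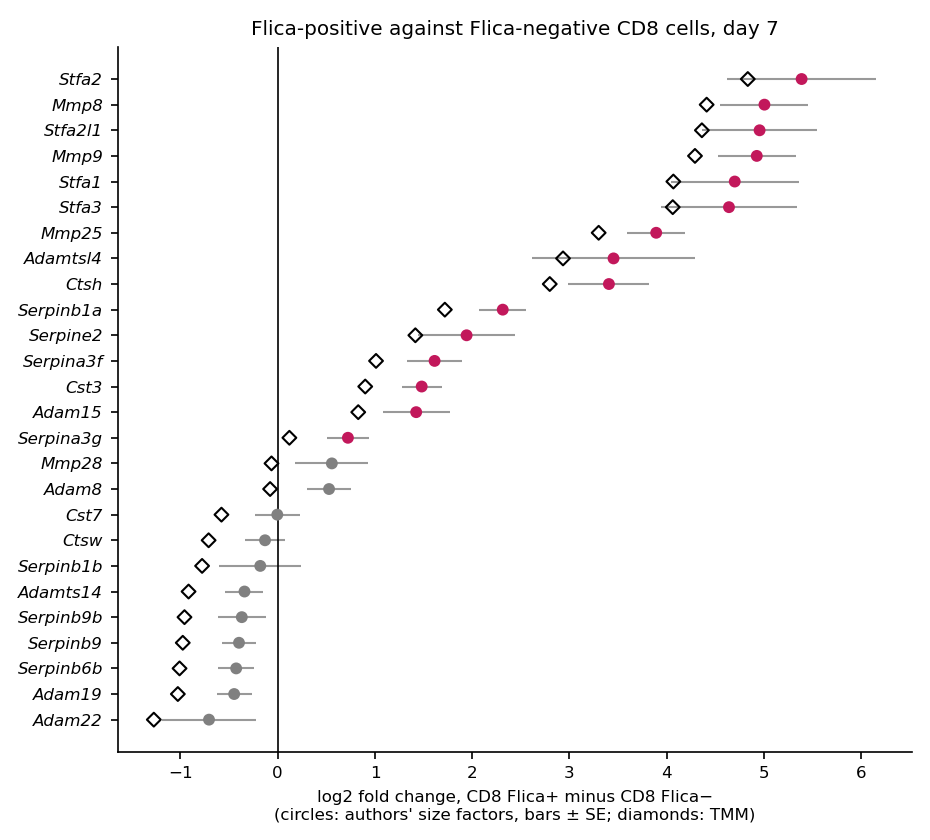
Log2 difference (Flica-positive minus Flica-negative, CD8+ cells) for the 26 members with a mean of at least 50 over all libraries, as fitted with the authors' size factors (circles ± SE, coloured where called) and with TMM (diamonds). The differences run from 5.39 for Stfa2 down to -0.71 for Adam22, and each diamond lies to the left of its circle.

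Members also differed between the CD4 and CD8 lineages. On day 0, 4 of 38 members were higher and 5 lower in CD4 than in CD8 controls, against 7.01% and 5.81% of listed genes. Ctsw was lower by -3.02 ± 0.16 (adjusted p = 3e-17), Cst7 by -2.41 ± 0.20 (adjusted p = 8.3e-12), Adam19 by -1.50 ± 0.17 (adjusted p = 1.7e-08) and Serpinb6b by -1.47 ± 0.33 (adjusted p = 0.00112). Adam15 was higher by 3.21 ± 0.37 (adjusted p = 1.8e-08) and Adamts14 by 1.40 ± 0.26 (adjusted p = 0.00013). The calls of Serpinb9 (-0.80, adjusted p = 0.0261), Adamts3 and Adam12 were each lost without a single library, up to adjusted p = 0.0863 without CD4 control replicate 3, 0.188 without CD4 control replicate 1 and 0.122 without CD4 control replicate 3. With the replicate block Adamts3 was not called (adjusted p = 0.0647), which left 8 calls.

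On day 7, 5 of 42 members were higher and 11 lower in Flica-negative CD4+ than in Flica-negative CD8+ cells, against 9.99% and 12.7% of listed genes. A fit of all 15 libraries called 10 members in place of 16, and the calls of Cst7, Ctsh, Mmp15, Mmp28 and Serpina3g were each lost without a single library, up to adjusted p = 0.0564 (Flica-negative CD8+ replicate 2), 0.144 (the same library), 0.133 (Flica-negative CD4+ replicate 3), 0.0879 (Flica-negative CD4+ replicate 1) and 0.0539 (Flica-negative CD4+ replicate 2). Adamts14 was lower by -2.14 ± 0.18 (adjusted p = 3.9e-08) and Serpinb1a by -1.67 ± 0.22 (adjusted p = 1.9e-05), and neither overlapped between the lineages. Serpina3f was higher by 1.87 ± 0.21 (adjusted p = 2.3e-06) and Adam8 by 0.82 ± 0.14 (adjusted p = 0.00027). Ctsw was lower by -0.83 ± 0.14 (adjusted p = 0.00018), a smaller gap than on day 0.

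The change from day 0 to day 7 itself differed between the lineages for 8 members, 4 with a larger and 4 with a smaller log2 change in CD4+ cells, against 5.65% and 4.6% of listed genes. Ctsw (by 2.20 ± 0.20, adjusted p = 1.1e-06) and Cst7 (by 1.74 ± 0.28, adjusted p = 0.00046) rose more in CD4+ cells, and so did Adam19 (by 0.88 ± 0.22, adjusted p = 0.0169). Adamts14 rose less in CD4+ cells (-3.53 ± 0.32, adjusted p = 1.3e-06). Its order turned, from higher in CD4 controls on day 0 to lower in CD4+ cells on day 7, with a call on both days. The group means of Serpinb1a, Serpine2 and Mmp14 changed order too, but these were not called between the controls. For Serpinb9 the changes differed by 0.35 ± 0.21 (adjusted p = 0.309) and for Serpinb6b by 0.83 ± 0.42 (adjusted p = 0.221). Under TMM 4 members were called.

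**Figure D5:**
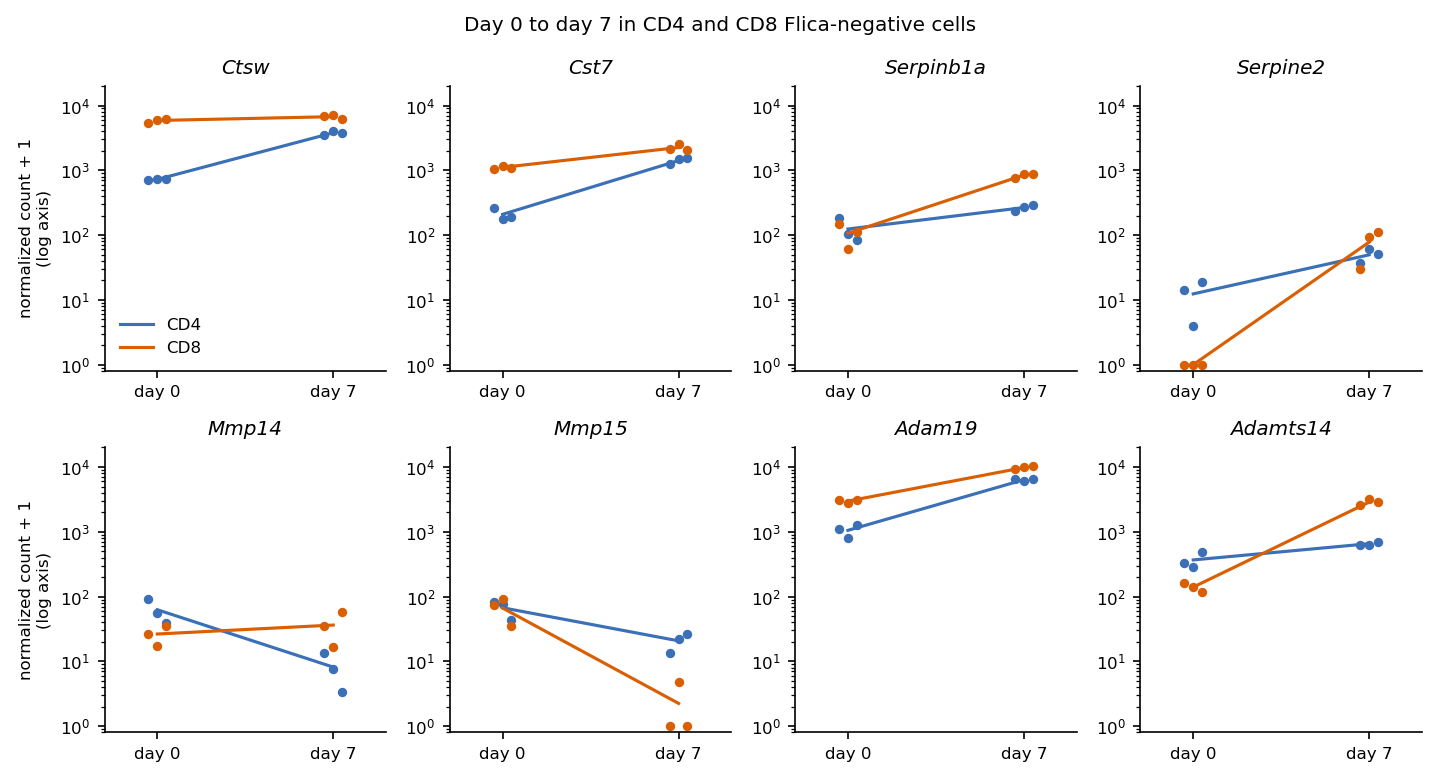
Normalized counts (+ 1, log axis) of the 8 members whose change differed between lineages, on day 0 and in Flica-negative cells on day 7, with 1 point per library and lines joining the group means of CD4+ and CD8+ cells. The lines of Adamts14, Serpinb1a, Serpine2 and Mmp14 cross, while those of Ctsw and Cst7 start apart and end closer.

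Other genes of the same pathways were taken from lists chosen by role. Of 15 granzymes and granule genes, among them Gzmb, the target of Serpinb9, 10 were listed. Of these 9 were higher in Flica-negative CD8+ and 9 in Flica-negative CD4+ cells than on day 0, against 37.6% and 31.6% of all listed genes. Between the fractions 0 were higher and 1 lower, against 21.1% and 2.72%, with a median log2 difference of -0.05 against 0.41 over all listed genes. Their summed level was 89344 to 108912 in Flica-negative and 78563 to 104893 in Flica-positive CD8+ libraries, against 9231 to 9969 in CD8 controls. Gzmb was at 41045, 43149 and 36696 in Flica-positive and at 34448, 45578 and 42834 in Flica-negative CD8+ libraries, so that the fractions overlapped as they did for Ctsw.

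Of 28 other extracellular proteases 15 were listed, and 10 were higher in the Flica-positive fraction, at a median log2 difference of 3.504 against 0.41 over all listed genes, of which 21.1% were higher. Of these 10, 5 (Cpa3, Elane, Mcpt8, Prss34 and Prtn3) are also in the marker lists above. Elane (neutrophil elastase), a protease that Serpinb1a inhibits, was at 2494, 4851 and 2643 in Flica-positive and 203, 368 and 243 in Flica-negative CD8+ libraries. Of 20 other protease inhibitors and receptors 9 were listed and 7 were higher in Flica-positive cells, among them Plaur, the receptor of urokinase, at 1691, 2923 and 3916 against 103, 90.5 and 235. Of 35 other lysosomal genes 9 were listed and 6 were higher, and of 24 matrix substrates 8 were listed and 7 were higher, with 0 lower in all 4 lists. Fn1 (fibronectin) was at 3740, 7188 and 11386 in Flica-positive and 209, 519 and 559 in Flica-negative CD8+ libraries. The myeloid markers given above were higher in the same libraries, and Fn1 and, in the lysosomal list, Lyz2 are also among them.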

How the data were processed

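RNA from 15 libraries was sequenced after oligo-dT selection. According to the submitters' processing notes, the authors aligned reads with STAR 2.7.1a to GRCm38 and used DESeq2. The counting tool and annotation are not given in the sources used here. The deposited gene tables hold raw counts per gene and library, which the authors did not normalize, and a mean of normalized counts over all libraries (a signal that the authors deposited, used to recover their size factors to a relative error of 6e-15). Fold changes and p-values of the authors' comparisons and the tables of gene set enrichment were not used.

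Counts of each pair of groups were fitted alone with edgeR 4.0.16 (quasi-likelihood test, two-sided) in R 4.3.3 with these size factors, no filter and no block, and the difference of the CD4 and CD8 changes was fitted on 4 groups. P-values were adjusted by Benjamini-Hochberg over all listed genes (4322 to 4567 tested), not over the genome, since only listed genes are in the tables. The sum of listed counts is not the library's depth. Where a group was at 0 in all libraries, a fold is a lower bound set against 3 counts per library. Intervals and bounds cover counting error only. Alternatives were TMM over listed genes, a minimum mean of 10, DESeq2 1.42.0, 1 fit of all 15 libraries, a replicate block and leaving out each library.

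Same-numbered libraries deviated together in 2 comparisons, with correlations, over genes whose mean was 100 or more, of 0.301, 0.135 and 0.22 between the Flica fractions and 0.334, 0.138 and 0.182 between the controls. By the rule that every correlation exceed 0.1, only these 2 were taken as paired, since Flica-negative CD4+ against CD8+ cells gave 0.364, 0.0931 and 0.505. Printed values are unblocked, and for these 2 comparisons a blocked value is given where it changed a call. For the other comparisons the effect of the block is given only as a number of called members. With a minimum mean of 10 the correlations were 0.0362 to 0.162 between the Flica fractions and 0.0376 to 0.113 between the controls. No 2 replicates agreed within sampling noise.

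The members, gene lists and alternatives were chosen with earlier results of these data known. The rule for genes given library by library took 20 members: the 4 largest called rises and falls in each comparison with day 0 or between the fractions at a mean of 100 or more, the 3 lowest adjusted p-values in each comparison of lineages, and 17 listed of 27 preset genes. Further members were named after their values were seen. Positions and shared 100-base windows were computed from the GRCm38 transcripts. Promoters are from RefSeq.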

Additional observations from a re-analysis of the deposited data

Results flagged for a closer look

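The change from day 0 to Flica-negative cells on day 7 differed between the CD4 and CD8 lineages for 8 members, by the test of that difference in edgeR. A positive value means a larger log2 change in CD4+ cells. It was 2.2 for Ctsw, 1.74 for Cst7, 0.876 for Adam19 and 3.84 for Mmp15 (adjusted p = 0.0492). It was -3.53 for Adamts14, -1.88 for Serpinb1a (adjusted p = 0.0153), -3.57 for Mmp14 (adjusted p = 0.0376) and -7.28 for Serpine2 (adjusted p = 0.00704). Serpine2 was at 0 in every CD8 control, so its value depends on the prior count of the fit and is no size of effect. Mmp15 fell in both lineages, and Mmp14 fell in CD4+ cells. The calls of Mmp14, Mmp15 and Serpinb1a were lost without a single library, with adjusted p up to 0.107 without CD4 control replicate 1, 0.108 without CD8 control replicate 2 and 0.0553 without CD4 control replicate 1. The other calls were kept without each library in turn. With TMM, however, Adam19, Mmp14 and Mmp15 were not called, and only 1 serpin was.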

How the results depend on the processing

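Among the counts of called members, that between Flica-negative CD4+ and CD8+ cells went from 16 to 10 in 1 fit of all 15 libraries, and that of the difference between the lineages' changes went from 8 to 4 with TMM and to between 5 and 11 without a library in turn. No other total of called members moved by more than 1.5 times, leave-one-out fits and the replicate block included, but TMM moved the split, from 29 higher and 4 lower to 19 and 8 between Flica-positive CD8+ cells and CD8 controls and from 16 and 0 to 14 and 5 between the fractions. The block called 24 members in place of 33 between Flica-positive CD8+ cells and CD8 controls and 8 in place of 9 between the controls.

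TMM reversed the direction of 6 values. Against CD8 controls, Flica-positive cells were at -0.384 for Adam19, -0.6 for Cst7, -0.397 for Ctsh and -1.55 for Ctsw, Flica-negative CD8+ cells were at -0.184 for Ctsw, and between the fractions Adam8 was at -0.08. Leaving out a library reversed values near 0 that were not called, namely Cst7 (-0.184 to 0.175) and Ctsw (-0.249 to 0.02) between the fractions and Ctsw between Flica-positive cells and controls (-0.05 to 0.219). The causes were not tested. Low counts limit the members at 0 in a whole group to bounds, and adjusted p-values cover listed genes only.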
